A study of Mus musculus with 2 samples.

Results

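The genes described here are 7 immediate early genes (Fos, Jun, Junb, Egr1, Atf3, Ier2 and Nr4a1) and 3 heat shock genes (Hspa1a, Hspa1b and Dnajb1), which are 10 of the 32285 genes in the matrices. They were taken by symbol from a list set with earlier results of these data known, and all 10 had transcripts in both libraries. Immediate early genes are transcribed within minutes of a stimulus by factors already present in the cell, such as SRF with its ternary complex partners and CREB. They need no new protein synthesis, and most of their products are themselves transcription factors. Fos and Jun proteins pair as AP-1, Atf3 belongs to the ATF/CREB family, Egr1 is a zinc finger factor and Nr4a1 is an orphan nuclear receptor. Heat shock genes are switched on by HSF1, which binds repeated GAA units in their promoters, and encode chaperones such as HSP70 (Hspa1a and Hspa1b) and its HSP40 partner (Dnajb1). In the small intestine these genes respond to growth factors, bacterial products and injury, and both groups are also known to be induced while tissue is taken apart into single cells.

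The measurements are transcript counts of single cells from the proximal small intestine of C57BL/6 mice, in 2 libraries of 1 group, controls. Control 1 is titled as an M1 control and control 2 as an M3 control, in a series on mice with altered M1 or M3 muscarinic receptor expression. No other allele, treatment, age or number of animals is stated for the controls in the sources used here. The tissue spent 60 min on ice in 20 mM EDTA, which frees mainly villi, and the remainder was digested warm for 10 min with the protease mix TrypLE, which frees mainly crypts. The fractions were pooled and passed on at 80% viability or more. No sample went without this treatment, so a response to handling and a state of the living tissue cannot be told apart in these libraries.

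Control 1 held 9342 barcodes with 54451793 UMIs (unique molecular identifiers, 1 for each captured transcript) and control 2 held 7109 with 36139325. After barcodes with under 500 genes, 25% or more mitochondrially encoded UMIs or a doublet call were left out, 7115 and 4714 cells remained, with 8 barcodes in common. The doublet caller marked only 5 and 28 cells, so doublets were hardly removed. The cells were clustered without the 10 genes and the other stress genes listed here, and the 30 clusters were named from marker genes. Enterocyte-like cells (3469 and 2310), progenitor-like cells (537 and 269), goblet-like cells (113 and 251) and T or NK cell-like cells (2616 and 1667) were the largest classes together with myeloid-like cells (229 and 92). Mitochondrial RNA made up a median of 0.178% and 0.189% of the UMIs of enterocyte-like cells, against 2.53% and 3.25% for the T or NK cell-like class. Malat1, a nuclear noncoding RNA, made up a median of 0.0186% and 0.0511% of the other UMIs of enterocyte-like cells, against 2.02% and 2.99% for the T or NK cell-like class. Levels are therefore given as counts per 1000000 UMIs other than mitochondrial and Malat1 UMIs (CPM).

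The promoter stretches below show the sequence context of Fos, Jun and Atf3 and of the near-silent HSP70 pair. They are the 120 bases before the RefSeq start on GRCm38.p6, read on the strand of the gene. Fos lies at chr12:85473890-85477273 on the plus strand and its stretch is chr12:85473770-85473889. Jun lies at chr4:95049034-95052222 on the minus strand and its stretch is chr4:95052223-95052342. The Atf3 stretch, chr1:191183334-191183453 on the minus strand, lies before a RefSeq start inside the annotated gene at chr1:191170296-191218039. The stretches of Hspa1a (chr17:34972157-34972276) and Hspa1b (chr17:34959239-34959358) are both on the minus strand. Capitals mark TGACGT on either strand, which is the start of the cyclic AMP response element TGACGTCA, the variant TGACATCA, and GAANNTTC, a facing pair of heat shock units.
Fos: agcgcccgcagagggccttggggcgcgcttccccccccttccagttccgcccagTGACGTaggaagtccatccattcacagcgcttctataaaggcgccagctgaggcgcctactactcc
Jun: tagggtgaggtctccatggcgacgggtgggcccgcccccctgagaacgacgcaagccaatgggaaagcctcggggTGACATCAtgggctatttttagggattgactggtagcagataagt
Atf3: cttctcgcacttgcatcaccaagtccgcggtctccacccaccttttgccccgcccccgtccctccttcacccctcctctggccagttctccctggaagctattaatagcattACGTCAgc
Hspa1a: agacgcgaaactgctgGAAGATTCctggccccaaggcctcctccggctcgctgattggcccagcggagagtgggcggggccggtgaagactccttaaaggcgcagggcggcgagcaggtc
Hspa1b: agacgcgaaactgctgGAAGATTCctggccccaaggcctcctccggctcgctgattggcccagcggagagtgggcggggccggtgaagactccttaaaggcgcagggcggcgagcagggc

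Promoters of 8 of the 10 genes were in the RefSeq table, all but those of Egr1 and Ier2. TGACGT stood at -66 in Fos and at -8 in Atf3, and 6.47% of all 32851 promoters hold it on either strand of the same 250-base window. TGACATCA stood at -45 in Jun and in 2.93% of all promoters. GAANNTTC stood at -104 in both Hspa1a and Hspa1b and at -128 in Jun, and in 6.69% of all promoters. The windows of Junb, Nr4a1 and Dnajb1 held no TGACGT, TGACATCA or GAANNTTC, so these matches are not shared by the whole set. The full TGACGTCA was in the window of none of the 8 genes and in 1.55% of all promoters. The windows of Hspa1a and Hspa1b were identical at 247 of 250 positions, so the pair shares its promoter almost letter for letter. Their transcripts also share 58.8% (Hspa1a) and 62.3% (Hspa1b) of all 50-base words, but 0% within the last 400 bases, the end that these 3' libraries read. Of the listed genes, 4 overlap an annotated gene on the other strand (Jun with Junos, Junb with Prdx2, Atf3 with Gm24748 and Hspa1a with Gm20481), and whether the counting used strand is not given in the sources used here.

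Epithelial classes held 84.2% of the Fos UMIs in control 1 and 92.9% in control 2, at 151 and 117 CPM, against 115 and 82.9 CPM over all cells of every class. Enterocyte-like cells held 148 CPM of Fos in control 1 (3271 UMIs) and 123 CPM in control 2 (1404 UMIs). T or NK cell-like cells held 40.5 and 15.0 CPM, and progenitor-like cells 7.54 and 19.0 CPM. Erythroid-like cells held 9.54 and 13.8 CPM, in a total that keeps their abundant hemoglobin UMIs. Myeloid-like cells held 100 and 71.5 CPM of Fos, above the T or NK cell-like level in both libraries. Goblet-like cells reached 289 CPM in control 1 and 114 CPM in control 2, and the 24 and 12 enteroendocrine-like cells 387 and 125 CPM. The libraries were thus close for enterocyte-like cells and far apart for goblet-like, enteroendocrine-like and T or NK cell-like cells, each time with the higher level in control 1. Fos in B or plasma cell-like cells was 374 CPM in control 1 and 8.32 CPM in control 2, and 79 of its 85 UMIs in control 1 came from 14 plasma-marked cells of cluster 27.

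Jun, the usual AP-1 partner of Fos, was highest in enteroendocrine-like cells, with 478 and 371 CPM in control 1 and control 2. Those levels did not overlap those of Paneth-like cells, next in order at 127 and 132 CPM. Enterocyte-like cells held 92.4 and 134 CPM of Jun, T or NK cell-like cells 48.0 and 36.1 CPM, and progenitor-like cells 27.5 and 20.2 CPM. Junb, an AP-1 subunit with a prominent role in lymphocytes and myeloid cells, had another order. It was highest in myeloid-like cells at 430 and 207 CPM and next in T or NK cell-like cells at 349 and 131 CPM, against 119 and 108 CPM in enterocyte-like cells. The T or NK cell-like level of Junb was thus well above the enterocyte-like level in control 1 and near it in control 2.

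Atf3, an ATF/CREB factor induced by many stresses, was almost restricted to epithelial and myeloid-like cells. It reached 146 and 132 CPM in enteroendocrine-like cells, 85.8 and 45.3 CPM in goblet-like cells, 53.4 and 47.6 CPM in myeloid-like cells and 24.7 and 46.5 CPM in enterocyte-like cells. Among 2616 and 1667 T or NK cell-like cells it had 15 and 5 UMIs in all (1.14 and 0.657 CPM). Egr1, a zinc finger factor downstream of SRF, was highest in enteroendocrine-like cells (274 and 110 CPM), Paneth-like cells (115 and 94.6 CPM) and goblet-like cells (99.3 and 40.6 CPM), and held 25.3 and 11.3 CPM in enterocyte-like cells. The Paneth-like levels of control 2 rest on 1 cell, which held 503 of the 516 immediate early UMIs of 13 cells, 140 of 142 for Fos. Ier2, a small nuclear protein gene with a broad early response, lay between 48.1 and 157 CPM in the 5 largest classes. Nr4a1, which lymphocytes switch on after antigen receptor stimulation, was highest in myeloid-like cells (54.3 and 105 CPM), against T or NK cell-like cells (14.9 and 7.36 CPM) and enterocyte-like cells (1.27 and 0.263 CPM). Within the myeloid-like class the 16 and 11 cells of cluster 26, led by the monocyte genes Lyz2, Chil3 and Ccr2, held 228 and 379 CPM of it. Most of the myeloid-like Nr4a1 UMIs of both libraries came from these few cells.

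The HSP70 genes were close to undetected. Hspa1a had 8 UMIs in control 1 and 27 in control 2 over all cells (0.188 and 1.06 CPM), and Hspa1b had 29 and 65 UMIs (0.680 and 2.55 CPM). In enterocyte-like cells, Hspa1b reached 0.859 CPM (95% Poisson interval 0.517 to 1.34) in control 1 and 3.50 CPM (2.503 to 4.77) in control 2. Hspa1a in T or NK cell-like cells was 0 UMIs in control 1, a count that allows up to 0.229 CPM, and 6 UMIs in control 2. Dnajb1, the HSP40 co-chaperone, was present at 27.4 and 39.0 CPM over all cells. Across the large classes it was at 27.8 and 36.3 CPM in enterocyte-like, 16.7 and 32.9 CPM in progenitor-like, 28.4 and 31.2 CPM in goblet-like, 29.5 and 48.2 CPM in T or NK cell-like and 32.0 and 42.9 CPM in myeloid-like cells. In all 5 of these classes Dnajb1 was higher in control 2. Fos and Junb were higher in control 1 in each of these classes except the progenitor-like class. Intervals and count limits cover counting error only.

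Against epithelial cells, T or NK cell-like cells had less Fos, Jun and Atf3 transcript and more Nr4a1, while the AP-1 subunit gene Junb did not pass the test. The comparison sums the UMIs of each side per library, 2 sums against 2, with library as a block, and tests them with edgeR's quasi-likelihood test and Benjamini-Hochberg adjustment over all genes not used to cluster or name cells. Because library is a block, the p-values rest on how far the difference between the sides varied from 1 library to the other. Each gene by itself has 1 residual degree of freedom, so the p-values also draw on the spread of the other genes tested. Whether each library stands for a different mouse is not known from the labels. Fos held 40.5 and 15.0 CPM in T or NK cell-like cells and 151 and 117 CPM in epithelial cells, a log2 fold change of -3.12 ± 0.25 (SE; adjusted p = 1.68e-06, edgeR). The corresponding log2 fold changes were -2.13 ± 0.20 for Jun, -5.87 ± 0.31 for Atf3, -0.97 ± 0.20 for Egr1, -2.43 ± 0.54 for Hspa1b and -0.41 ± 0.17 for Dnajb1, all past an adjusted p of 0.05. Nr4a1 rose by 1.97 ± 0.30 (adjusted p = 1.83e-04). Junb (0.28 ± 0.26), Ier2 (-0.24 ± 0.15) and Hspa1a (-1.81 ± 0.84) did not pass. Of the 10 genes, 1 was higher and 6 were lower, a called share of 70% beside 75.8% of the 13290 genes tested (38.7% higher and 37.1% lower), so a call as such is no mark of these genes. Their median log2 fold change was -1.39, against 0.08 over all genes tested.

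TMM scaling shifted all log2 fold changes of this comparison by 0.74 relative to plain totals. Without it, Ier2 was higher in T or NK cell-like cells (0.50, past the threshold), Dnajb1 was at 0.33, Egr1 fell short of the threshold at -0.23, and Junb passed at 1.02. With every cell thinned to 2000 UMIs, Egr1 was at 0.10. Enterocyte markers in T or NK cell-like cells summed to 3324 and 1917 CPM over all 11 markers, against 72130 and 66312 CPM in enterocyte-like cells, so T or NK cell-like cells carried some enterocyte transcript; its part in these differences was not tested. Of 26 other immediate early genes tested, 7 were higher and 12 lower in T or NK cell-like cells (median -0.45), so calls were about as frequent here, and in the heat shock and upstream lists of this comparison, as the 75.8% among all genes. Klf4, an epithelial differentiation factor, was at 9.99 and 9.85 CPM in T or NK cell-like cells and 173 and 301 CPM in enterocyte-like cells (log2 fold change against epithelial cells -5.33 ± 0.26). The nuclear receptors Nr4a3 (4.31 ± 0.32) and Nr4a2 (3.59 ± 0.21) rose with Nr4a1, and Nr4a2 held 290 and 96.3 CPM in T or NK cell-like cells against 11.8 and 4.64 CPM in enterocyte-like cells. Of 18 other heat shock genes, 5 were higher and 7 lower, led by Hspa2 (3.22 ± 0.47), Hspb1 (-2.30 ± 0.71) and Fkbp4 (-1.85 ± 0.20). Of 12 upstream genes, 5 rose and 4 fell, led by the SRF partners Elk3 (5.65 ± 0.20) and Elk1 (2.55 ± 0.44) and by the kinase gene Mapk3 (-2.57 ± 0.18).

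Among immune cells, 7 of the 8 tested genes were higher in myeloid-like than in T or NK cell-like cells and none was lower, while 15.3% of all 11081 genes tested were higher and 11.1% lower (26.3% called). Atf3 stood out in size, with 60 and 20 UMIs in 229 and 92 myeloid-like cells and 15 and 5 UMIs in 2616 and 1667 T or NK cell-like cells. Its log2 fold change was 6.13 ± 0.46 (adjusted p = 4.75e-37, edgeR). Nr4a1 rose by 3.13 ± 0.30, Fos by 2.06 ± 0.26, Jun by 1.26 ± 0.25, Egr1 by 1.10 ± 0.31, Ier2 by 0.97 ± 0.23 and Junb by 0.89 ± 0.25. The myeloid-like level of Nr4a1 rests in large part on the few monocyte-marked cells of cluster 26, so its rise need not hold for the rest of the class. Egr1 rests on control 2, with 66.7 CPM in myeloid-like and 15.6 CPM for T or NK cell-like cells there, against 28.5 and 37.4 CPM in control 1. Its log2 ratio was 2.60 in control 2 alone and -0.05 in control 1 alone. Dnajb1 did not pass (0.41 ± 0.30), and Hspa1a and Hspa1b were too rare to test. Leaving out cells in the top 6% of doublet scores, Egr1 (0.01), Ier2 (0.82) and Junb (0.71) no longer passed. Egr1 (0.26) and Junb (0.74) also fell short with every cell thinned to 2000 UMIs, and without TMM, which shifted this comparison by -0.39 (0.73 and 0.50). Per 1000000 of all UMIs, T or NK cell markers summed to 27404 and 18143 in the myeloid-like class. In the T or NK cell-like class they summed to 43627 and 33018. Myeloid-like cluster 17, with 94 and 40 cells, held 40125 on the same scale. The part of these transcripts in the differences was not tested. Of 26 other immediate early genes, 14 were higher and 1 lower, led by Klf2 (5.09 ± 0.25), Ier3 (4.32 ± 0.71) and Klf4 (3.36 ± 0.29), while 2 of 17 other heat shock genes rose, Hspa8 (1.11 ± 0.28) and Hspe1 (1.09 ± 0.24). The upstream list had 3 higher and 4 lower of 12, led by Mef2c (8.02 ± 0.45).

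Within the epithelium, progenitor-like cells, whose clusters scored highest for cycling markers, had the lowest summed immediate early level of the epithelial classes, 162 and 186 CPM. Cluster 4 made up 346 of the 537 and 176 of the 269 cells. It had 5 of 10 cycling markers detected and 0 among its 10 leading genes, so most of the class is not shown to be dividing. Fos held 7.54 and 19.0 CPM (14 and 15 UMIs) in progenitor-like cells and 161 and 122 CPM in other epithelial cells, a log2 fold change of -3.57 ± 0.29 (adjusted p = 6.05e-15, edgeR). Atf3 fell by 3.88 ± 0.44 on the log2 scale, Jun by 2.13 ± 0.25, Egr1 by 1.99 ± 0.35 and Junb by 1.38 ± 0.22, each in both libraries. Ier2 held 78.1 and 87.3 CPM in progenitor-like cells, against 71.7 and 53.7 CPM in other epithelial cells, and did not pass the test (0.43 ± 0.20, adjusted p = 0.0744), nor did Nr4a1, Hspa1b and Dnajb1. None of the 9 tested genes was higher and 5 were lower, beside 21.1% higher and 26.8% lower (47.9% called) among all 11403 genes tested. The 3 progenitor-like clusters had median mitochondrial shares of 0.124% to 0.238%. With every cell thinned to 2000 UMIs, Egr1 no longer passed (-0.46) and Ier2 did (0.89), and with cells under 1% left out the fold changes of the 5 genes were larger (Fos -4.86, Egr1 -3.91). The 2 stress lists parted here. Of 23 other immediate early genes, 3 were higher and 12 lower, led by Fosb (-4.91 ± 0.63), Klf4 (-3.52 ± 0.24) and the phosphatase gene Dusp1 (-2.72 ± 0.59). Of 16 other heat shock genes, 12 were higher and 1 lower. The mitochondrial chaperone genes Hspd1 (656 and 718 CPM in progenitor-like, 186 and 139 CPM in enterocyte-like cells) and Hspe1 (1451 and 892 CPM, against 395 and 257 CPM) led this list with Hsp90ab1 (2716 and 2264 CPM, against 700 and 488 CPM), at log2 fold changes of 2.34 ± 0.19, 2.10 ± 0.18 and 2.20 ± 0.17. These genes serve protein folding in growing cells under ordinary conditions, unlike Hspa1a and Hspa1b. In the upstream list 0 of 10 rose and 2 fell by edgeR, Mapk8 (-2.16 ± 0.31) and Elk4 (-0.73 ± 0.29).

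Goblet-like cells, which secrete mucus, stood above other epithelial cells in Egr1, Atf3 and Ier2. Egr1 held 99.3 and 40.6 CPM in goblet-like cells and 32.8 and 19.2 CPM in other epithelial cells (log2 fold change 1.61 ± 0.19, adjusted p = 0.0013, edgeR). Ier2 rose by 0.89 ± 0.17 and Atf3 by 1.17 ± 0.38. The Atf3 difference was 2.00 in control 1 and 0.36 in control 2, where goblet-like cells had 45.3 and other epithelial cells 43.8 CPM. Fos was at 0.75 ± 0.26 (adjusted p = 0.0519) and Jun, Junb, Nr4a1, Hspa1b and Dnajb1 did not pass either, so 3 of 9 were higher and none lower, beside 22.8% higher and 26.7% lower of all 11288 genes (49.5% called). TMM scaling shifted this comparison by -0.24, and Atf3 did not pass without it (0.93) or among cells with at least 1% mitochondrial UMIs (0.63). With every cell thinned to 2000 UMIs, Ier2 no longer passed (0.21) and Fos did (0.78). Of 24 other immediate early genes, 9 were higher and 3 lower, with Gadd45b (3.16 ± 0.25), Myc (-2.41 ± 0.52) and Cebpb (-2.28 ± 0.20) moving most. Of 16 other heat shock genes, 0 were higher and 14 lower, led by Hspe1 (-3.37 ± 0.19), Hspd1 (-3.31 ± 0.19) and Hsph1 (-2.52 ± 0.40). Progenitor-like cells are part of the other side here, and the difference between the 2 comparisons was not tested. The upstream list had 3 higher and 1 lower of 10, led by Creb1 (1.00 ± 0.17).

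Enterocyte-like cells, which absorb nutrients and make up most of the villus, passed the test against other epithelial cells for none of the AP-1 genes or Atf3. Fos was at 0.07 ± 0.25, Jun at 0.03 ± 0.29, Junb at 0.40 ± 0.24 and Atf3 at -0.24 ± 0.27 on the log2 scale, and Fos and Jun differed in sign between the libraries. Egr1 held 25.3 and 11.3 CPM in enterocyte-like cells and 82.3 and 48.7 CPM in other epithelial cells (-1.87 ± 0.23, adjusted p = 1.64e-04, edgeR). Nr4a1 fell by 2.55 ± 0.52 and Ier2 by 0.65 ± 0.23 on the same scale. In control 2, 1 Paneth-like cell held 94 of the 262 Egr1 UMIs and 12 of the 19 Nr4a1 UMIs of the other side. That cell also held 63 of the 379 Ier2 UMIs there. Paneth-like cells, part of the other side, held 12.5 to 13.1 CPM of Nr4a1 in the 2 libraries. How much of these differences such cells make up was not tested. None of 9 was higher and 3 were lower, beside 21.2% higher and 15.7% lower (36.9% called) of all 11470 genes tested. Of 23 other immediate early genes, 4 were higher and 5 lower, led by Klf2 (-2.29 ± 0.47), Gadd45b (-1.88 ± 0.34) and Zfp36 (1.43 ± 0.27). Of 17 other heat shock genes, 2 were higher and 2 lower, with the rare Hspb1 at -4.32 ± 0.72. Of 10 upstream genes, 2 were higher and 1 lower.

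**Figure D1:**
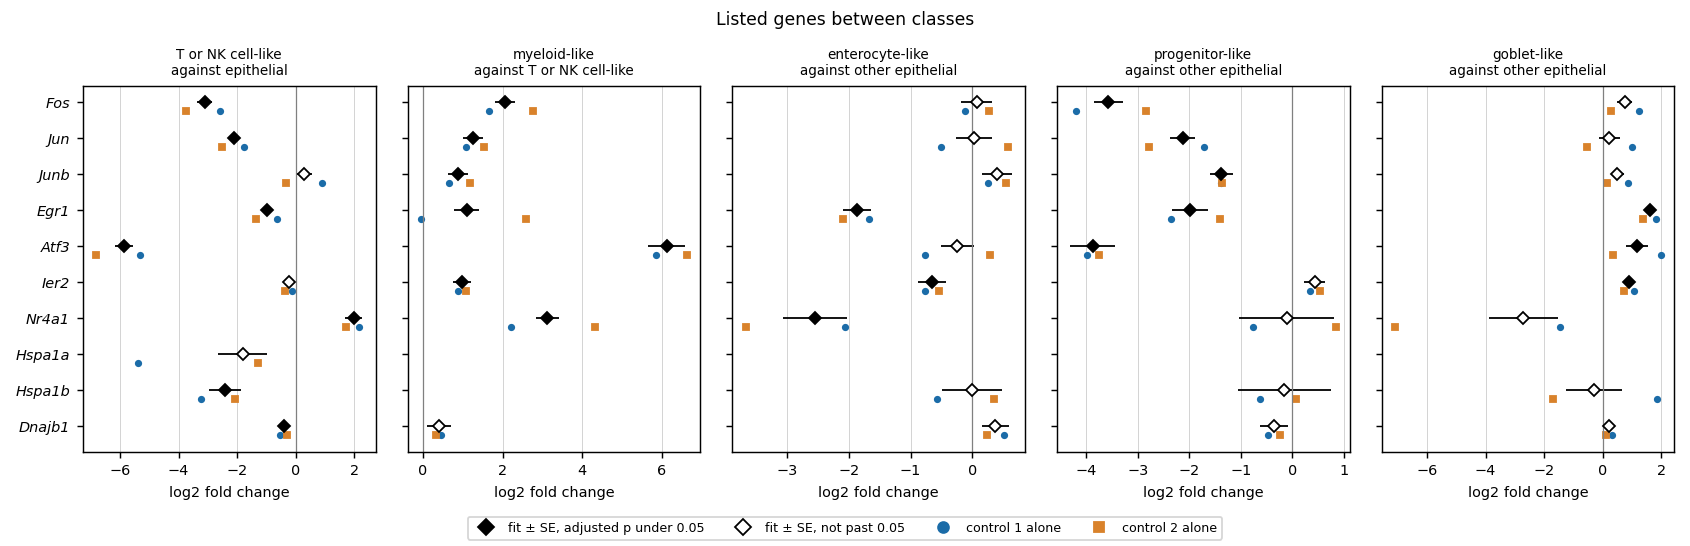
Log2 fold change of each listed gene in the 5 comparisons between classes: diamonds are the edgeR fit with its SE, filled where the adjusted p is under 0.05, and coloured points are the log2 ratios of control 1 and control 2 alone; genes too rare to test have no point. Progenitor-like cells lie left of 0 for Fos, Jun, Junb, Egr1 and Atf3 in both libraries, and Egr1 in myeloid-like cells separates the libraries at -0.05 and 2.60.

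The enterocyte-like average hid a wide spread between clusters. Cluster 1, with 60 and 110 cells and led by Clca4a, Ly6m and Ada, held 632 and 454 CPM of Fos, 473 and 553 CPM of Jun and 219 and 315 CPM of Atf3. The summed level of the 7 immediate early genes was 1708 and 1598 CPM there, against 474 and 471 CPM for all enterocyte-like cells. It was also the enterocyte-like cluster richest in mitochondrial RNA, with 14.0% and 14.6% of UMIs, and in Malat1, with 1.85% and 3.26% of the other UMIs. Cluster 15 held very deep cells (median 43768 and 35623 UMIs in 236 and 117 cells) with 9.16% and 11.8% mitochondrial UMIs, and its Fos level was 198 and 93.6 CPM. In the largest enterocyte-like cluster, cluster 0, mitochondrial UMIs made up 0.488% and 0.723% and Fos was at 92.2 and 65.3 CPM. Among all clusters with at least 20 cells in each library (22 clusters, 44 points of cluster and library), the gene whose log2 level followed that of Fos most closely was Jun (Pearson r 0.78 over 44 points, among 8913 genes), followed by Ace (0.749), Kdm6b (0.745), Dst (0.738) and Mxd1 (0.736). Jun and Atf3 had an r of 0.638, Fos and Atf3 of 0.534, and Junb and Egr1 of 0.566. The points share libraries, depth and free RNA, and r is given as a description. Among the genes closest to Hspa1a were Bmp8a (0.611), Pde4d (0.539) and Gpr39 (0.513), on 35 UMIs of Hspa1a in all.

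**Figure D2:**
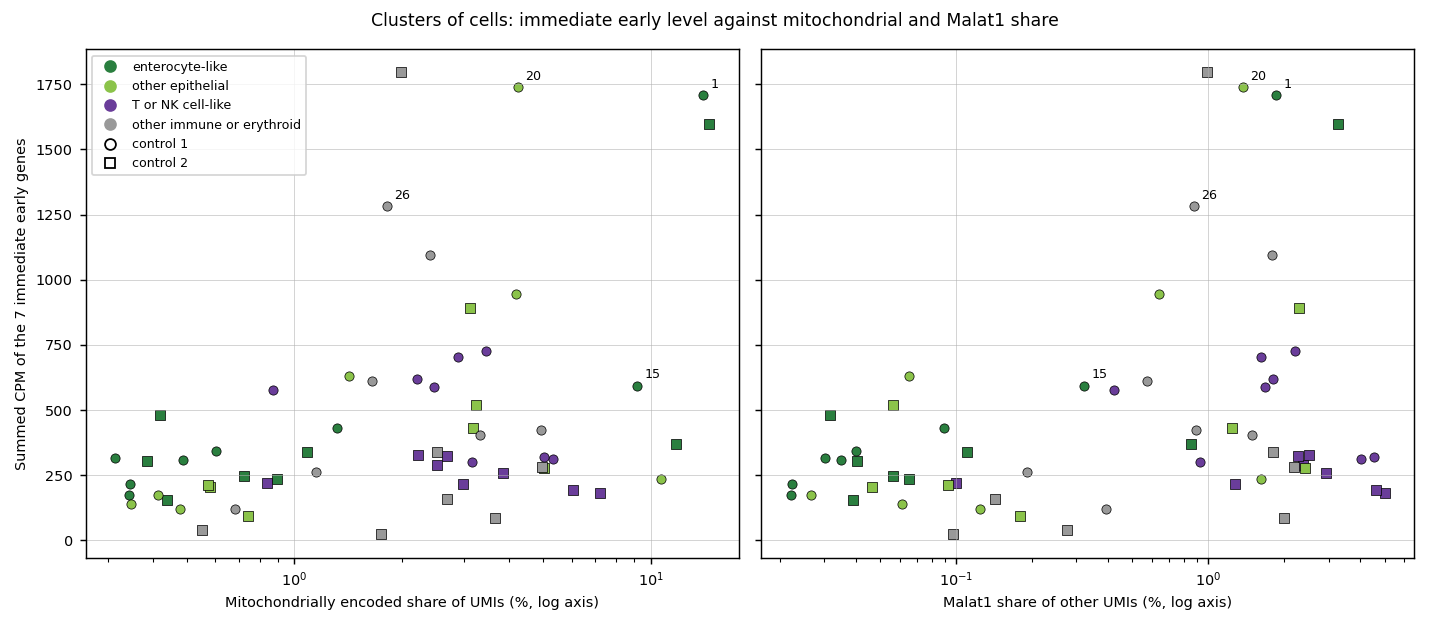
Summed CPM of the 7 immediate early genes (vertical axis) in each of the 30 clusters against the cluster's mitochondrial share (left) and Malat1 share (right), both shares on log axes, with circles for control 1, squares for control 2 and colours for class groups; clusters 1, 15, 20 and 26 are numbered at their control 1 point. Cluster 1 has the largest mitochondrial share and lies at 1708 and 1598 CPM, and enteroendocrine-like cluster 20 reaches 1737 CPM in control 1. T or NK cell-like clusters 9 and 10 have larger Malat1 shares than cluster 1, and no T or NK cell-like cluster is above 728 CPM.

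Per cell, Fos and Atf3 were unevenly spread in enterocyte-like cells, and for each listed gene most cells had no UMI, though 56.8% and 48.9% of all unthinned cells had one from at least 1 immediate early gene. With each cell thinned to 2000 UMIs, 2086 and 1348 enterocyte-like cells remained, and 12.8% and 13.6% of them had a Fos UMI, where a Poisson draw with the same mean would give 16.6% and 17.1%. The variance was 1.74 and 1.56 times the mean. The top 10% of cells held 84.9% and 81.0% of the Fos UMIs. That share was 100% in both libraries for Ier2 and Dnajb1, which fewer cells carried, so by itself it is no mark of uneven spread. Atf3 was in 1.92% and 2.67% of enterocyte-like cells, with a variance of 1.40 and 3.04 times the mean. Junb and Ier2 were close to Poisson in enterocyte-like cells (variance over mean 1.09 and 1.19 for Junb, 1.30 and 0.951 for Ier2), and so was Dnajb1 (1.03 and 1.01; 1.02 and 1.01 for the T or NK cell-like class). Among T or NK cell-like cells Junb had a variance of 2.28 and 1.54 times the mean and was in 37.2% and 17.1% of 2154 and 1213 cells, and Egr1 reached 2.91 and 3.13. For the immediate early sum the variance was 8.67 and 4.69 times the mean in 141 and 55 myeloid-like cells, and 7.74 and 15.8 times the mean in the 24 and 10 enteroendocrine-like cells that remained. A Fos UMI was in 6.55% and 1.57% of thinned T or NK cell-like cells, against 8.33% of 36 and 0% of 26 erythroid-like cells, which should transcribe little. The erythroid-like shares rest on 3 and 0 UMIs, and 0 of 26 cells allow a share of up to 11.5%, too few to place the T or NK cell-like shares above or below background. By level, Fos was at 40.5 and 15.0 CPM in T or NK cell-like cells and at 9.54 and 13.8 CPM in erythroid-like cells. Unthinned, 14.8% and 13.7% of all cells had a Fos UMI and 38.3% and 27.4% a Junb UMI.

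Some pairs of immediate early genes met in the same enterocyte-like cells more often than the product of their single shares. Fos and Jun were both present in 3.74% and 4.60% of thinned enterocyte-like cells, 2.87 and 2.75 times the product of their single shares. For Fos and Atf3 this ratio was 3.53 and 3.27 (18 and 16 cells), and for Fos and Egr1 in control 1 it was 5.23 (18 cells). In T or NK cell-like cells of control 1, Egr1 and Ier2 met 2.19 times as often as the product of their shares (35 cells) and Fos and Junb 1.51 times (79 cells). These ratios are descriptions across cells of a library, and they pool clusters of unlike level. In enterocyte-like cluster 1 alone, 57.5% and 53% of 40 and 100 thinned cells had a Fos UMI, and 47.5% and 58% a Jun UMI. How far such differences between clusters make up the ratios was not tested.

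**Figure D3:**
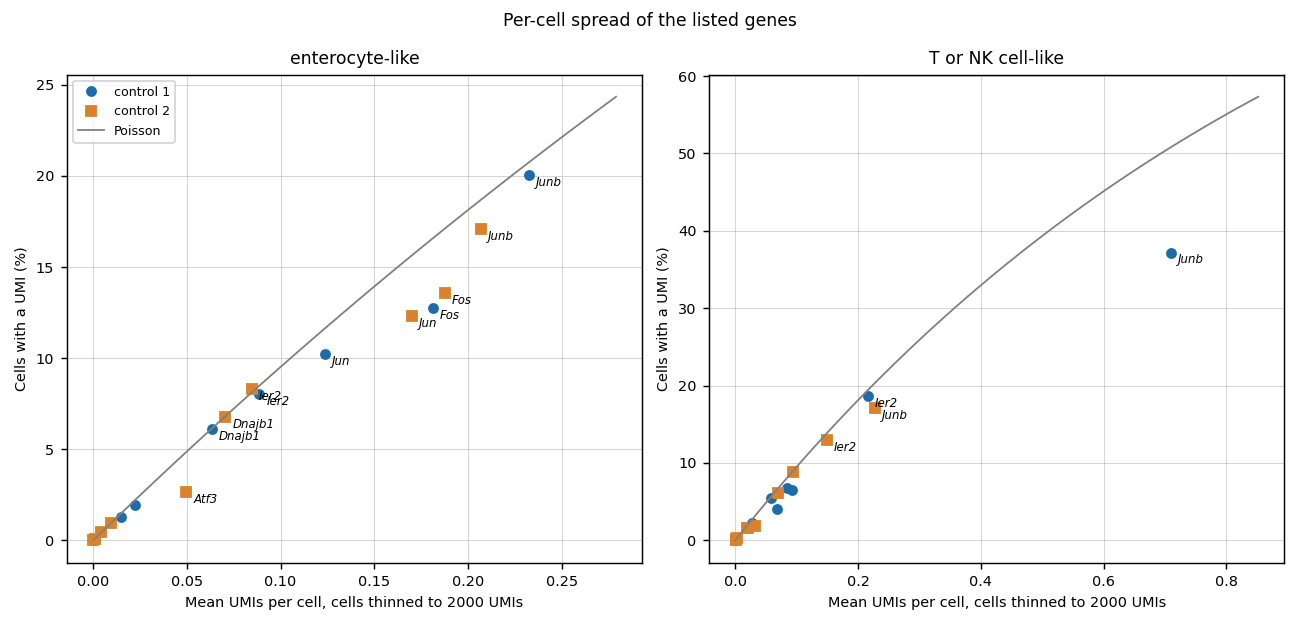
Share of cells with a UMI (%) against mean UMIs per cell for the listed genes after thinning each cell to 2000 UMIs, in enterocyte-like (left) and T or NK cell-like cells (right), with the grey line giving a Poisson draw. Fos, Jun and Atf3 fall below the line in enterocyte-like cells and Junb among T or NK cell-like cells, at 37.2% and 17.1%, while Ier2 and Dnajb1 lie on or near it.

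In enterocyte-like cells the immediate early level was higher where the mitochondrial share was higher. Below 2.5% mitochondrial UMIs the summed level was 241 to 295 CPM in all 3 bins of both libraries. It was 735 and 429 CPM between 2.5% and 5%, 532 and 562 CPM between 5% and 10%, and 726 and 773 CPM between 10% and 25% (143 and 173 cells). Above 2.5% the level thus had no steady order in control 1 and was higher in each next bin in control 2. The cells of each library were divided into 3 equal groups by share, and the highest (high-share cells) compared with the lowest (low-share cells). Egr1 held 37.3 and 17.4 CPM in high-share cells and 1.92 and 2.91 CPM in low-share cells (log2 fold change 3.03 ± 0.35, adjusted p = 9.59e-07, edgeR). Atf3 rose by 2.80 ± 0.30, Jun by 0.99 ± 0.21 and Fos by 0.83 ± 0.16. Junb fell by 0.52 ± 0.16 and Dnajb1 by 0.67 ± 0.20, while Ier2 stayed at 0.01 ± 0.22, and Nr4a1, Hspa1a and Hspa1b were too rare to test. Of 7 tested genes 4 were higher and 2 lower, beside 31.9% higher and 26.3% lower (58.3% called) among all 10987 genes. TMM shifted this comparison by 0.52, and without it Junb was at 0.00 and Dnajb1 at -0.15, neither past the threshold. With groups formed among cells thinned to equal depth, Junb was at -0.07 and Dnajb1 at 0.33, and neither passed. The 2 sides were not alike in depth or makeup. High-share cells held 16047438 and 7570745 UMIs in all, and low-share cells 4167702 and 2751871. Cluster 15 alone supplied 83.9% and 36.0%, and cluster 1 8.08% and 55.1%, of the immediate early UMIs of the high-share cells. When cells were divided within each cluster, only Atf3 (0.62) among those 6 passed. Egr1 was at -0.43, Fos at 0.24, Jun at 0.36, Junb at 0.23 and Dnajb1 at 0.14, and Ier2 fell past the threshold at -0.86. Among the other immediate early genes 6 of 21 rose and 7 fell, led by Fosb (4.13 ± 0.50), Myc (3.70 ± 0.64) and Nr4a2 (2.28 ± 0.40). Of 16 other heat shock genes 4 rose and 7 fell, led by Dnaja1 (-1.43 ± 0.12), and of 10 upstream genes 3 rose and 2 fell.

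The relation to Malat1 in enterocyte-like cells had the same direction. The summed level was 287 and 252 CPM in cells with no Malat1 UMI (1588 and 702 cells), 587 and 342 CPM at 0.1% to 0.5%, 985 and 674 CPM at 1% to 2.5%, and 1413 and 1265 CPM at 2.5% to 5% (17 and 43 cells). Across thinned cells Spearman's rho between the summed level and the Malat1 share was only 0.09 and 0.19, and with the mitochondrial share 0.12 and 0.13. In control 1 all 1588 cells without a Malat1 UMI formed the low-share side, against 1156 high-share cells, so the groups were unequal there. Whether a cell has a Malat1 UMI also depends on its depth. In high-share against low-share cells, Egr1 rose by 2.94 ± 0.34 (adjusted p = 5.88e-04, edgeR), Atf3 by 2.01 ± 0.39, Jun by 1.28 ± 0.27 and Fos by 1.01 ± 0.14. Junb held 125 and 109 CPM in high-share cells and 120 and 99.8 CPM in low-share cells. After TMM scaling, which shifted this comparison by 0.53, its log2 fold change was -0.44 ± 0.14, and Dnajb1 was at -0.85 ± 0.19, both past the threshold. Without TMM Junb was at 0.092 and Dnajb1 at -0.31, and with groups formed among cells thinned to equal depth they were at -0.07 and -0.44, and neither passed under either setting. Of 7 tested genes 4 were higher and 2 lower, beside 30.9% higher and 25.2% lower (56.1% called) of 11064 genes, and with cells divided within each cluster 0 of 7 passed by edgeR, Atf3 being at 1.70, Jun at 0.75, Fos at 0.43 and Egr1 at 0.28. Of 22 other immediate early genes 6 rose and 5 fell, again led by Fosb (6.21 ± 0.50), Myc (3.04 ± 0.50) and Nr4a2 (2.53 ± 0.41), and of 16 other heat shock genes 4 rose and 6 fell.

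In T or NK cell-like cells, Fos and Egr1 were lower in high-share cells by Malat1 share, and Junb and Dnajb1 were lower there, as they were after TMM scaling in enterocyte-like cells. Fos held 28.6 and 12.5 CPM in high-share T or NK cell-like cells and 44.9 and 16.1 CPM in low-share cells (log2 fold change -0.95 ± 0.20, adjusted p = 0.00125, edgeR). Junb fell by 1.01 ± 0.18, Egr1 by 1.36 ± 0.31, Ier2 by 1.04 ± 0.15 and Dnajb1 by 1.36 ± 0.18, while Jun was at 0.07 ± 0.17 and Nr4a1 at -0.47 ± 0.32. None of 7 was higher and 5 were lower, beside 24.8% higher and 26.1% lower (50.9% called) of 11301 genes. TMM shifted the comparison by 0.40, and each of the 5 was also lower without it. Within clusters Fos (-0.63), Egr1 (-1.02) and Dnajb1 (-0.46) passed, Jun was higher at 0.42, and Ier2 (-0.19) and Junb (-0.21) did not pass. High-share cells were shallower, with a median of 2853 and 2467 UMIs, against 5259 and 6282.5 in low-share cells. Of 23 other immediate early genes 0 rose by edgeR and 11 fell, led by Klf2 (-2.33 ± 0.43), Egr3 (-1.60 ± 0.52) and Jund (-1.49 ± 0.20), and of 17 other heat shock genes 1 rose and 10 fell, led by Hspe1 (-1.78 ± 0.19). By mitochondrial share all 7 tested genes had a negative log2 fold change, from -1.27 for Egr1 to -0.53 for Nr4a1, but none passed. There edgeR called 0 of all 11340 genes (0%), 4165 had an unadjusted p under 0.05, and DESeq2 called 397, so the count of 0 for the listed genes carries no information on them.

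**Figure D4:**
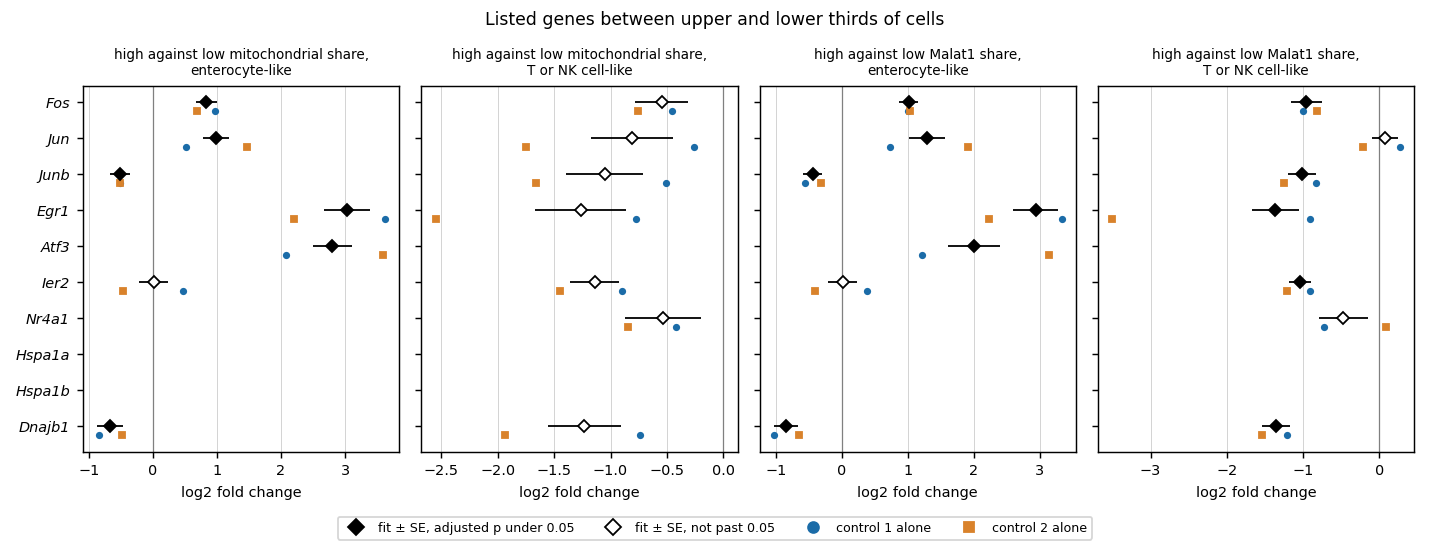
Log2 fold change of each listed gene between high-share and low-share cells by mitochondrial share (panels 1 and 2) and by Malat1 share (panels 3 and 4), with the same symbols as in the plot of class comparisons. In enterocyte-like cells Egr1 and Atf3 lie between 2.01 and 3.03, whereas in T or NK cell-like cells the fitted values lie below 0 except that of Jun by Malat1 share at 0.07.

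Of the heat shock genes, Dnajb1 alone was frequent enough to test between high-share and low-share cells, and in enterocyte-like cells it was lower by both shares after TMM scaling, as Junb was, but neither gene passed without that scaling. The summed heat shock level, almost wholly Dnajb1, was 31.9 and 40.7 CPM in enterocyte-like cells below 0.5% mitochondrial UMIs and 32.2 and 41.6 CPM between 10% and 25%. Spearman's rho with the Malat1 share across thinned enterocyte-like cells was -0.02 and 0.01. For T or NK cell-like cells their level was 31.9 and 54.7 CPM at 1% to 2.5% mitochondrial UMIs and 6.00 and 9.96 CPM between 10% and 25%.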

How the data were processed

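Single-cell 3' libraries of 2 control samples were analysed from the deposited matrices of UMI counts per gene and barcode. Per the submitters' processing notes the authors used Cell Ranger 6.1 and 7.1.0 with GRCm38/mm10. Intron counting, strand setting and the rule for keeping barcodes are not given in the sources used here. Deposited counts were raw whole numbers, and each file's barcodes had at least 500 UMIs. Cells with at least 500 genes, under 25% mitochondrial UMIs and no Scrublet call were kept (scanpy 1.11.5), with a median of 3447 and 3009.5 UMIs. They were clustered (Leiden, resolution 1, 2000 variable genes, 40 components, 15 neighbours) and named from fixed markers. The naming score, and a second split at resolution 0.3 of clusters that mixed dividing epithelial and lymphoid cells, were set after seeing the data. Counts were summed per library and class and tested in 9 comparisons with edgeR 4.0.16 (R 4.3.3; quasi-likelihood, library block, TMM, filterByExpr, adjusted p under 0.05 by Benjamini-Hochberg over all genes tested), so that each gene by itself has 1 residual degree of freedom. Both sides of each pair come from the same library, which is the reason for the block. Class comparisons left out 2040 genes used to cluster or name cells. High-share and low-share cells are the upper and lower of 3 equal groups by mitochondrial or Malat1 share within each library and class. All listed genes are named, and of each other list the 3 largest called changes. The members and lists were chosen with earlier results of these data known. Alternatives were DESeq2 1.42.0, no TMM, no low-count filter, no block, thinning, a 10% mitochondrial limit, other doublet and cluster settings, and each library alone. The scripts were tested on simulated data. Intervals are exact 95% Poisson intervals (scipy 1.17.1) and count limits use 3 counts. Some genes that the rule for likeness names are not reported here.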

Additional observations from a re-analysis of the deposited data

Results flagged for a closer look

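For some listed genes the log2 fold change between high-share and low-share cells differed between enterocyte-like and T or NK cell-like cells, tested as an interaction in edgeR with Benjamini-Hochberg adjustment over all genes. By mitochondrial share the log2 fold change of enterocyte-like cells minus that of T or NK cell-like cells was 4.21 for Egr1 (adjusted p = 8.44e-04), 1.75 for Jun (0.0294) and 1.33 for Fos (0.0292), where 1092 of 12923 genes passed. Junb (0.46), Dnajb1 (0.50) and Ier2 (1.08) did not pass. The fitted value of 3.77 for Atf3 is no measured contrast, because Atf3 had only 1 and 2 UMIs in high-share and 10 and 2 in low-share T or NK cell-like cells, and likewise Nr4a1 was too rare in enterocyte-like cells. By Malat1 share it was 4.24 for Egr1 (adjusted p = 7.85e-05), 1.85 for Fos (3.43e-04), 1.11 for Jun (0.0423) and 0.95 for Ier2 (0.0212), where 2675 of 12876 genes passed. For Ier2 the log2 fold change was 0.01 in enterocyte-like cells and -1.04 for the T or NK cell-like class, so the difference between high-share and low-share cells was the larger one for the T or NK cell-like class. Junb (0.47) and Dnajb1 (0.41) did not pass by Malat1 share, and both were lower in high-share cells of either class after TMM scaling. Clusters 1 and 15 make up most of the UMIs of enterocyte-like high-share cells, and their part in these differences was not tested.

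Barcodes left out for 25% or more mitochondrial UMIs (503 in control 1 and 273 in control 2) held a summed immediate early level of 1134 CPM in control 1 and 655 CPM in control 2, above the 541 and 399 CPM of the cells kept. The totals of the left-out barcodes also leave out hemoglobin UMIs, which the totals of the kept cells include. The classes of the left-out barcodes were not determined. Among the cells kept, enterocyte-like cluster 1 had a higher level than these barcodes in both libraries. The flag compares barcodes outside the main measurement with the cells kept, and no test was made.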

How the results depend on the processing

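Counts of listed genes called moved by over 1.5 times as follows. Without the replicate block they were 4 for T or NK cell-like against epithelial (7 with it), 1 for enterocyte-like (3) and 2 by Malat1 share in T or NK cell-like cells (5). Without the highest doublet scores 4 were called in myeloid-like cells (7), and under 10% mitochondrial UMIs 5 in goblet-like cells (3). By mitochondrial share, enterocyte-like cells gave 3 at equal depth and 2 within clusters (6). T or NK cell-like cells gave 3 without TMM, 5 without the low-count filter, 2 at equal depth and 1 within clusters (0). By Malat1 share enterocyte-like cells gave 0 within clusters by edgeR (6). The cause of these moves was not tested.

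Over all genes, the myeloid-like count (2917) was 1177 by DESeq2, 1340 thinned, 1866 above 1% mitochondrial UMIs and 1750 without the highest doublet scores. The enterocyte-like count (4233) was 2753 by DESeq2 and 2099 without the block. The progenitor-like count (5464) was 3349 by DESeq2, 3314 thinned, 3359 without the block and 1921 above 1% mitochondrial UMIs. By mitochondrial share the enterocyte-like count (6402) was 3996 by DESeq2, 2529 thinned, 3647 without the block and 2748 at equal depth. The T or NK cell-like count (0) was 397 by DESeq2, 9 under 10% mitochondrial UMIs, 4164 without TMM, 3028 without the filter, 1797 at equal depth and 192 within clusters. By Malat1 share the enterocyte-like count (6207) was 4105, 3254 thinned, 2497 at equal depth and 842 within clusters, and the T or NK cell-like count (5749) was 1975 by DESeq2, 2962 without the block and 2536 within clusters.

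Signs turned for these log2 fold changes. T or NK cell-like against epithelial: Egr1 0.10 thinned, Ier2 0.50 and Dnajb1 0.33 without TMM. Myeloid-like: Egr1 ranged from -0.052 to 2.60 with either library left out. Enterocyte-like: Fos -0.24 under 10% mitochondrial UMIs, -0.0018 without TMM and -0.23 above 1%, Jun -0.016 by DESeq2, -0.37 under 10%, -0.042 without TMM and -0.21 above 1%, Junb -0.19 and Dnajb1 -0.16 above 1%, and Hspa1b 0.13 under 10%, 0.0014 without the filter, 0.046 without the block and 0.0087 above 1%. Progenitor-like: Ier2 -0.45 above 1%, Nr4a1 0.061 by DESeq2 and 0.026 without the highest doublet scores, and Hspa1b 0.10 without them. Goblet-like: Jun -0.0081 without TMM and -0.10 above 1%, Junb -0.23 thinned, Hspa1b 0.12 by DESeq2, and Dnajb1 -0.70 thinned and -0.024 without TMM. Mitochondrial share, enterocyte-like: Junb 0.0042 without TMM and 0.23 within clusters, Egr1 -0.43 within clusters, Ier2 -0.066 by DESeq2, -0.86 within clusters and -0.010 without the highest doublet scores, and Dnajb1 0.26 thinned, 0.33 at equal depth and 0.14 within clusters. T or NK cell-like, within clusters: Ier2 0.028 and Dnajb1 0.0025. Malat1 share, enterocyte-like: Junb 0.092 without TMM and 0.24 within clusters, Ier2 -0.082 by DESeq2 and -0.78 within clusters, and Dnajb1 0.082 within clusters. T or NK cell-like: Jun -0.042 under 10% and -0.0060 without the highest doublet scores.

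The mean immediate early level of enterocyte-like cells (473 CPM) was 441 CPM per all UMIs and 334 CPM as a mean over cells, and 471 to 474 CPM by library. Its variance over mean (2.17) was 1.61 thinned to 1000 UMIs and 2.02 to 2.33 by library, and its rho with the Malat1 share (0.136) was 0.09 to 0.19. With 2 libraries and few UMIs of Hspa1a, Hspa1b and Nr4a1, depth limits what can be called for these genes.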
